A study of Mus musculus with 12 samples.

Results

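Mouse CD4 T cells that had divided 3 times in an immune response (D4) were compared with the sorted cells on either side of them, which had divided 2 times (D3) and 5 times (D6). The D4 arrays were set against the average of the D3 and D6 group means, with the experiment number as a block, so that a change that runs steadily with division largely cancels. The comparison used 9 of the 12 arrays, 3 each of D3, D4 and D6 from 3 independent experiments. The 3 arrays of D8, cells that had divided 7 times, were left out of the test, and their levels are given as values. In every group, naive CD4 cells from the DO11.10 strain, which carries a transgenic T cell receptor for an ovalbumin (OVA) peptide, were stained with the dye CFSE and placed in BALB/c hosts that then received the peptide in complete Freund's adjuvant (CFA). Lymph node cells were taken 66 to 72 hours later and sorted on the dye. The labels name no gate on the transgenic receptor, and whether animals were pooled is not given in the sources used here. Per the design text, D4 cells passed readily into the memory pool after transfer into new hosts, whereas D3, D6 and D8 cells had less of this capacity. The arrays hold no measure of memory formation, so that property rests on the text alone.

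CFSE binds proteins inside the cell and is shared between daughter cells, so its brightness falls at each division and counts how often a cell has divided. Activated CD4 T cells pass from an early phase with strong receptor-induced genes to a phase of rapid cycling and effector differentiation, and most of them later die. A few persist as memory cells, which depend on the receptors for IL-7 and IL-15, on anti-apoptotic proteins such as Bcl2 and on the receptors that guide cells through lymphoid tissue.

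Of 45281 probes, 17256 (38.1%) had a detection p under 0.05 in 3 or more of these 9 arrays and were tested. They included 14513 probes with 1 gene symbol, standing for 9284 genes, 9 with several and 2734 with none. Median intensity was 44.7 to 51.2, and 15678 to 16666 probes were detected per array. The T cell receptor chain Cd3e had a mean log2 level of 13.25 in D3, 13.33 in D4 and 13.26 in D6, and the coreceptor Cd4 had 8.13, 8.20 and 8.25. Levels below are log2 normalized intensities, and differences are D4 minus the average of D3 and D6 unless another pair is named, ± standard error with 3 arrays per division. In sorted populations, fewer cells of one kind and less RNA per cell cannot be told apart.

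Few probes set D4 apart from the midpoint of its neighbours at the threshold used. Only 8 of 17256 probes (0.0464%) passed an adjusted p of 0.05, of which 2 were higher in D4 (0.0116%) and 6 lower (0.0348%). At an unadjusted p under 0.05 there were 1466 probes (8.5%), with 737 higher (4.27%) and 729 lower (4.22%). The median absolute difference was 0.08, the median standard error 0.10, and the smallest absolute difference that passed was 0.78. The 8 calls depended on comparing divisions within an experiment: without the block, limma called 0 probes, and 787 had an unadjusted p under 0.05. The number called also changed when 1 array was left out, which leaves fewer arrays for the fit. It was 0 without D4 replicate 2 or without D4 replicate 3, and 8 without D6 replicate 3. The differences themselves kept their direction in the leave-outs. They ranged from 1.04 to 1.15 for ILMN_1236603, -0.83 to -0.75 for Zbtb32 and -0.91 to -0.67 for Socs3.

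The 8 probes did not share one pattern. ILMN_1236603 was highest in D4, Sapcd1 was high in D3 and D4 and lower in D6, and the other 6 were low in D3 and D4 and high in D6. Against all tested probes, of which 23.3% had a D4 mean above both neighbours, 54.1% between them and 22.7% below both, the 8 called probes had 1 above, 6 between and 1 below. D4 minus D6 alone gave 1318 called probes (7.64%), and D4 minus D3 gave 6 (0.0348%). These comparisons share the D4 arrays.

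**Figure D1:**
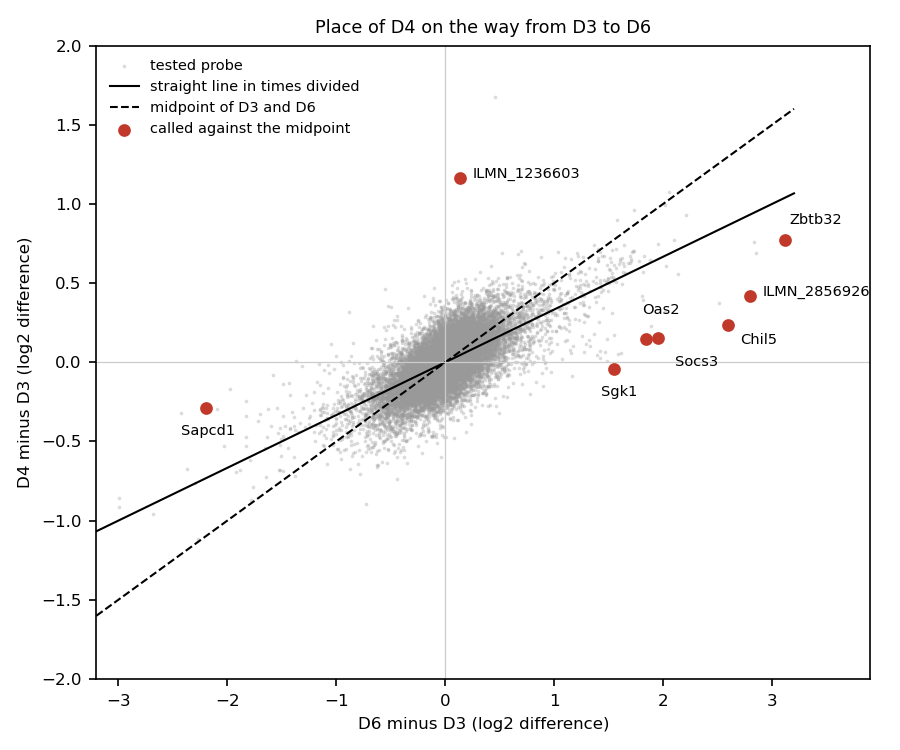
Each point is a tested probe, placed by its log2 difference between D6 and D3 (horizontal) and between D4 and D3 (vertical). The dashed line is the midpoint of D3 and D6, against which the 8 red probes were called, and the solid line is the value expected 33.3% of the way, for a change in proportion to the number of divisions. ILMN_1236603 stands far above both lines near a D6 minus D3 difference of 0, with 1 uncalled probe (ILMN_1215076) higher still, while 6 red probes lie below both lines on the right.

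The probe with the clearest peak at D4 was ILMN_1236603, to which the annotation gives no gene. Its level was 5.77, 6.77 and 6.42 in the 3 D3 arrays, 6.96, 7.78 and 7.71 in D4, and 5.95, 6.61 and 6.82 in D6. The lowest D4 array lay above the highest array of either neighbour. D4 was higher by 1.09 ± 0.10 (2.13-fold; limma, adjusted p = 0.00533), with a difference of 1.09 in each of the 3 experiments. D4 was above D3 by 1.16 ± 0.11 (adjusted p = 0.0166) and above D6 by 1.02 ± 0.11 (adjusted p = 0.000543). The D8 arrays read 7.10, 7.10 and 5.41, and 1 of them lay well below the others. 

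Sapcd1 was the other probe called higher in D4. It read 10.58, 10.81 and 10.73 in D3, 10.37, 10.56 and 10.33 in D4, 8.27, 8.81 and 8.46 in D6, and 6.10, 5.82 and 7.01 in D8. D4 lay just below D3 and far above D6, with no overlap between D4 and D6. The difference from the average was 0.81 ± 0.09 (1.75-fold, adjusted p = 0.0149). The step from D3 to D4 was -0.29 ± 0.10 (adjusted p = 0.314), against 1.91 ± 0.10 between D4 and D6 (adjusted p = 1.67e-05). The difference therefore came from the D6 side.

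Socs3 and Sgk1 are signalling regulators that were still at their D3 level in D4. Socs3, an inhibitor of cytokine signalling through JAK kinases and STAT factors, read 7.91, 7.27 and 8.24 in D3, 7.80, 7.67 and 8.40 in D4, and 9.96, 9.37 and 9.95 in D6. The D3 and D4 ranges overlapped, and each D6 array was higher than each of them. D4 was lower than the average by 0.83 on the log2 scale (-0.83 ± 0.11, 1.77-fold, adjusted p = 0.0446), and its difference from D3 was 0.15 ± 0.13 (adjusted p = 0.677). Sgk1, a kinase induced by serum and glucocorticoids, read 9.15, 8.80 and 9.11 in D3, 8.93, 8.75 and 9.26 in D4, and 10.60, 10.17 and 10.94 in D6. It is the called probe whose D4 mean lay below both neighbours, but the step from D3 was -0.04 ± 0.11 (adjusted p = 0.911) and in 2 of 3 experiments D4 was below D3. The difference from the average was -0.82 ± 0.10 (adjusted p = 0.0224). D8 went further in the same direction as D6, with means of 10.38 for Socs3 and 11.45 for Sgk1.

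Zbtb32, a zinc finger repressor of transcription that restrains activated lymphocytes, had already begun to change at D4. It read 5.43, 5.00 and 5.08 in D3, 6.28, 5.78 and 5.76 in D4, 8.59, 8.28 and 7.99 in D6, and 9.67, 9.36 and 9.17 in D8. The 4 divisions did not overlap. D4 was above D3 by 0.77 ± 0.10 (adjusted p = 0.0459) and D4 minus D6 was -2.35 ± 0.10 (adjusted p = 5.04e-06), which left it -0.79 ± 0.09 from the average (adjusted p = 0.0149).

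Oas2, an interferon-induced oligoadenylate synthetase that senses double-stranded RNA, showed the use of the block. It read 5.66, 5.62 and 6.74 in D3, 5.76, 5.83 and 6.87 in D4, and 7.34, 7.82 and 8.40 in D6. Experiment 3 was the highest in every division, while D4 stayed near D3 within each experiment. The difference was -0.74, -0.89 and -0.70 in experiments 1 to 3 and -0.78 ± 0.11 in the fit (adjusted p = 0.0446). Without the block the adjusted p was 1.00.

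Chil5, a chitinase-like protein, was near the detection limit before D6. It was detected on 0 of 3 arrays in D3, 1 of 3 in D4 and 3 of 3 in D6, and read 4.30, 4.45 and 4.30, then 4.33, 4.70 and 4.72, then 6.65, 6.97 and 7.19. The D6 arrays stood clear of the others, and D8 went on to a mean of 8.07. D6 was at least 4.71-fold higher than D3, taking the D3 arrays at the lowest detected signal. The probe met the detection filter only through its D6 arrays, where it is high. Its fitted difference of D4 from the average, -1.06 ± 0.10, is therefore a description, although it counts among the 8 calls. ILMN_2856926, which has no gene in the annotation, followed the same course with means of 4.82, 5.23, 7.61 and 8.57 in D3, D4, D6 and D8, and its difference was -0.98 ± 0.13 (adjusted p = 0.0410).

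**Figure D2:**
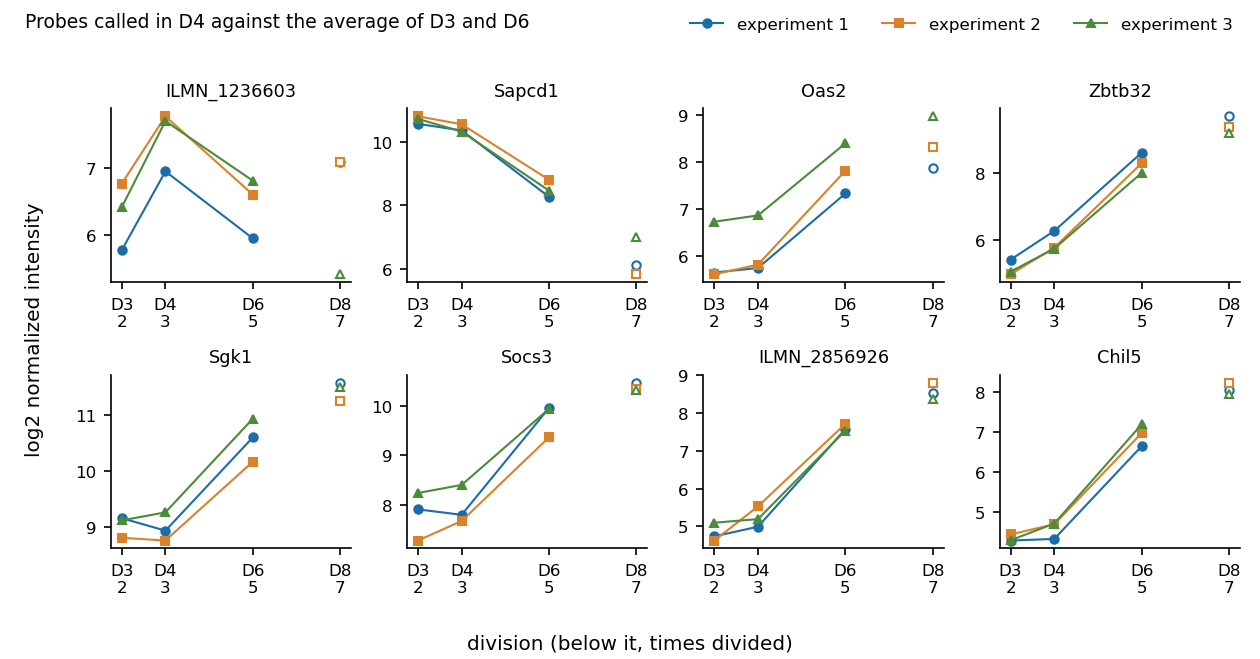
Each panel shows 1 of the 8 called probes, with log2 normalized intensity on its own vertical axis and the division on the horizontal axis, spaced by the number of times divided. Lines join the D3, D4 and D6 arrays of 1 experiment, and open symbols are the D8 arrays, which were not tested. In all 8 panels the 3 experiments differ from the midpoint in the same direction, and ILMN_1236603 is the only panel with a peak at D4 in each.

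Promoter sequence is shown for Socs3, Zbtb32 and Chil5, called genes with a symbol, as the 250 bases before the transcription start, from RefSeq on GRCm38.p6. Socs3 lies at chr11:117969367-117969616, Zbtb32 at chr7:30598910-30599159 and Chil5 at chr3:106032896-106033145, each on the minus strand and written 5′ to 3′ along the gene. Capitals mark matches on either strand to TTCNNNGAA, a spacing bound by STAT factors and to CCAAT, the CCAAT box.
Socs3 promoter: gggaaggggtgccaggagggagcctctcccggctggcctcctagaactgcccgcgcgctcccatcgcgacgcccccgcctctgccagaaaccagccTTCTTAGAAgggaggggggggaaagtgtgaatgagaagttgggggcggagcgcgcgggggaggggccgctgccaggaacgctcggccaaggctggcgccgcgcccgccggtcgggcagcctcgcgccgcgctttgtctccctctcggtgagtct
Zbtb32 promoter: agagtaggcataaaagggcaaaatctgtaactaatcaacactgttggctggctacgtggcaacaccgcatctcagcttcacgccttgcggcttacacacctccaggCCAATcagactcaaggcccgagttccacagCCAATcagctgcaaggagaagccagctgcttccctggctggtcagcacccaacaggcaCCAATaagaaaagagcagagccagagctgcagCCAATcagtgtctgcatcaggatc
Chil5 promoter: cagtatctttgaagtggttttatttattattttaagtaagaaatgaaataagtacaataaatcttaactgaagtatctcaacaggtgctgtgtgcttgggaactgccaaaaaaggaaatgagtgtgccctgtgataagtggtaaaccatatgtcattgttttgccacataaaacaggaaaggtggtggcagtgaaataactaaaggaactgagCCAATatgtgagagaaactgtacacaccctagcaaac
Socs3 held 1 TTCNNNGAA, with its first base at -154 counted from the start, and 7.02% of 32851 promoters of this length in the table held at least 1. Zbtb32 held 4 CCAAT boxes at -144, -114, -56 and -24, and Chil5 held 1 at -37. At least 1 CCAAT was found in 33.8% of promoters and 4 or more in 0.84%, and this motif was chosen with the sequences in view. A second annotated start of Zbtb32 held neither motif. Of the 6 annotated starts of Sgk1, the one farthest upstream, on the plus strand, held 1 match each to TTCNNNGAA (-223) and CCAAT (-227), which overlap. Another held 2 matches to CCAAT, at -226 and -23, and the other 4 held neither motif. The matches are a description of these letters and not of binding.

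Where the neighbours differed from each other, D4 was usually short of the midpoint. Of the 3525 probes with an adjusted p under 0.05 between D6 and D3, D4 had covered a median of 35.7% of the distance from D3 to D6 (interquartile range 20.5 to 50.8), and 73.9% were short of the midpoint. Among the 332 of them with a change over 1 log2 unit the median was 32.6% (23.2 to 39.1), and 94.9% were short of the midpoint, with 17 past it. The number of divisions would place D4 at 33.3% of the way and the contrast used here places it at 50%. This is a description, since the choice of these probes used the same D3 and D6 arrays. Of the called genes detected in every division, Sgk1 had covered -0.0277 of the distance, Socs3 0.077, Oas2 0.0786, Sapcd1 0.131 and Zbtb32 0.247.

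When D4 was set against the value on that straight line, in place of the midpoint, 1 probe was called. ILMN_1236603 kept its difference (1.12 ± 0.10, adjusted p = 0.00733). Each of the other 7 lost its call at an adjusted p of 0.715, although the directions stayed the same. Sapcd1 was then at 0.44 ± 0.09, Socs3 at -0.50 ± 0.12, Sgk1 at -0.56 ± 0.10 and Zbtb32 at -0.27 ± 0.09.

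A stricter question is whether D4 lay beyond both neighbours, tested with the larger of the p-values against D3 and D6. No probe passed (0 of 17256 in limma; 166 at an unadjusted p under 0.05, or 0.962%, with 85 above both and 81 below). ILMN_1236603 had the lowest adjusted p, 0.0549. Across all tested probes, D4 was above both neighbours in each of the 3 experiments for 504 probes (2.92%) and below both in each for 486 (2.82%). The largest difference upward among all probes was that of ILMN_1215076, named here for its size and without a gene in the annotation, with means of 7.17, 8.85 and 7.63 in D3, D4 and D6 and a difference of 1.45 ± 0.35 (adjusted p = 0.278).

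The genes with the largest gaps on 1 side of both neighbours are given as values, since none passed. They were taken from 192 genes above and 203 below at an unadjusted p under 0.05. The chemokine receptor Cxcr4, which holds cells in bone marrow and lymphoid tissue through CXCL12, read 5.84, 5.65 and 6.77 in D3, 5.43, 5.00 and 6.03 in D4, and 6.16, 5.56 and 6.43 in D6. D4 was the lowest division in 3 of 3 experiments, while the ranges of the divisions overlapped because experiment 3 was high throughout. The difference was -0.58 ± 0.11 (adjusted p = 0.111), and it was -0.57, -0.60 and -0.57 in experiments 1 to 3. Against D6 alone, D4 was lower by 0.56 on the log2 scale (-0.56 ± 0.12, adjusted p = 0.0205), and against D3 the difference was -0.60 ± 0.12 (adjusted p = 0.0959). D8 stood at 8.06, more than 1 log2 unit above the other divisions.

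Klhl2, a kelch protein, and Tnfrsf26, a mouse receptor of the TNF receptor family, were also lowest in D4 in 3 of 3 experiments. Klhl2 had means of 5.80, 5.23 and 5.59 in D3, D4 and D6 (-0.47 ± 0.10, adjusted p = 0.190), and Tnfrsf26 had 6.48, 6.17 and 6.72 (-0.43 ± 0.10, adjusted p = 0.265). The others below both were Taf6, a subunit of the general transcription factor TFIID, Atxn10, the heat shock factor Hsf2, Ssx2ip and the zinc finger gene Zfp62, with differences from -0.34 to -0.47. Taf6, Atxn10 and Ssx2ip were lowest in D4 in 3 of 3 experiments, and Hsf2 and Zfp62 in 2 of 3. Other probes of Taf6, Hsf2 and Zfp62 differed much less or in the opposite direction: they gave -0.06 and 0.00 for Taf6, -0.03 for Hsf2 and 0.22 for Zfp62.

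Above both neighbours, the SLAM family receptor Slamf9 had the largest difference. It read 6.21, 6.64 and 5.64 in D3, 6.68, 7.09 and 5.68 in D4, and 5.52, 5.39 and 4.94 in D6, which gave 0.76 ± 0.14 (adjusted p = 0.105). In experiment 3 its D3 and D4 arrays were nearly level. Pim2, a kinase that favours survival of cytokine-dependent lymphocytes, read 5.84, 5.08 and 5.18 in D3, 5.91, 5.57 and 6.03 in D4, and 5.18, 5.39 and 5.23 in D6. D4 was the highest in 3 of 3 experiments, and the difference was 0.52 ± 0.15 (adjusted p = 0.359), but another probe of Pim2 gave -0.03 ± 0.19. Actg2, an actin of smooth muscle, Rpusd1, Ctu1, a tRNA-thiolating enzyme, Smpdl3b, Gm5886 and the interferon gene Ifnab had differences of 0.35 to 0.41, with adjusted p from 0.300 to 0.535. Smpdl3b was highest in D4 in 2 of 3 experiments. The difference of Gm5886 was 0.04, 0.23 and 0.80 in experiments 1 to 3.

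**Figure D3:**
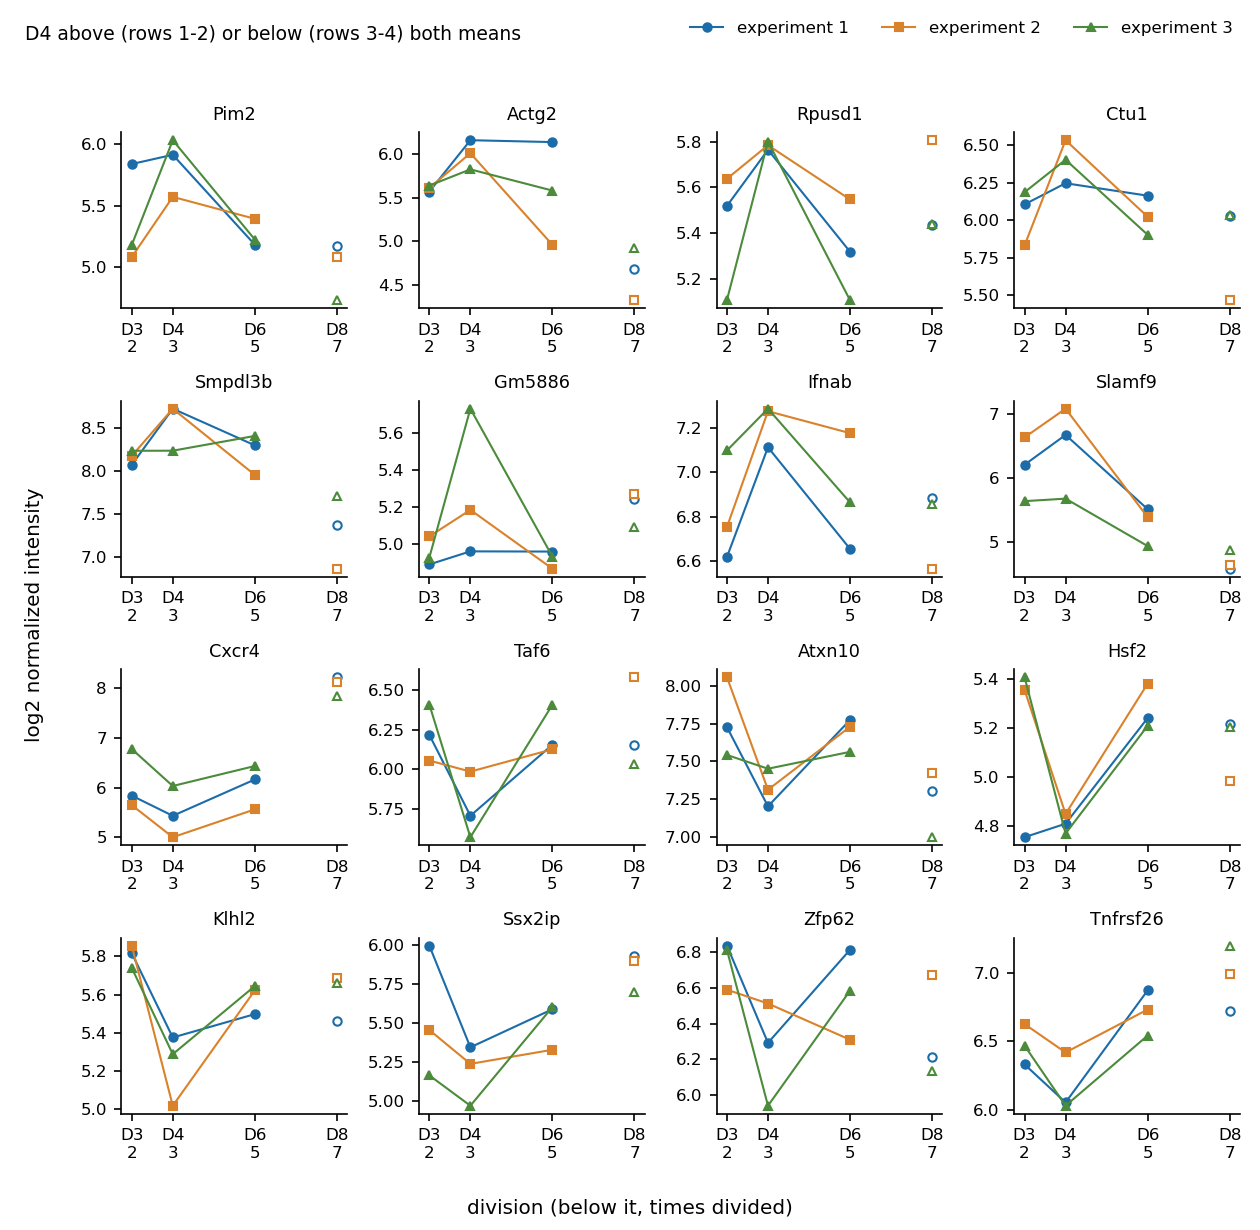
Log2 normalized intensity by division and experiment for the 8 genes with the largest gap above both neighbour means (upper 2 rows) and the 8 with the largest gap below (lower 2 rows), each panel on its own axis. Open symbols are the D8 arrays. None of the 16 genes passed, and the 3 lines of Cxcr4 run in parallel at different heights, with a dip at D4 in each.

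Genes known for memory and survival gave no difference that passed except Socs3. Of 25 chosen genes, 21 were tested. The IL-7 receptor chain Il7r read 7.00, 6.71 and 8.03 in D3, 6.95, 6.91 and 7.83 in D4, and 7.30, 7.59 and 7.60 in D6. The ranges overlapped, and the difference was -0.14 ± 0.17 with an interval from -0.51 to 0.23 (95%, adjusted p = 0.880). The survival gene Bcl2 was at 8.40, 8.36 and 7.98 in D3, D4 and D6, a difference of 0.17 ± 0.08 (interval -0.02 to 0.35, adjusted p = 0.623). Its other 5 probes gave differences from -0.18 to 0.17. The lymph node homing receptor Ccr7 differed by -0.02 ± 0.09 (interval -0.21 to 0.17), and Id3 and Cd27, both linked to memory T cells, by -0.06 ± 0.10 and -0.10 ± 0.08. Other probes of Cd27 gave 0.004 and 0.18.

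Klf2, a transcription factor of quiescent and recirculating T cells, read 8.90, 8.63 and 9.04 in D3, 8.99, 8.79 and 9.09 in D4, and 9.88 to 10.20 in D6. D4 overlapped D3 and lay below each D6 array. The difference was -0.48 ± 0.09 (adjusted p = 0.111), and D4 minus D6 was -1.07 ± 0.10 (adjusted p = 0.000339). Cxcr5, the receptor that draws T cells to B cell follicles, was at 8.95, 8.80 and 9.53 (-0.44 ± 0.09, adjusted p = 0.129), lowest in D4 in 3 of 3 experiments, and its other 2 probes gave -0.39 and -0.44. The Th1-associated chemokine receptor Cxcr3 was at 5.37, 6.13 and 8.20 (-0.66 ± 0.14, adjusted p = 0.191). In D4, Klf2, Cxcr5 and Cxcr3 were nearer to D3 than to D6. A change in proportion to the number of divisions would also place D4 nearer to D3. Against the straight line in times divided the differences were -0.29 for Klf2, -0.35 for Cxcr5 and -0.18 for Cxcr3, and none passed.

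Cd69, Cd44, Bcl2l11, Bbc3 and Il2 had differences above 0, none of which passed, and the Th1 factor Tbx21 had -0.23 ± 0.09 (adjusted p = 0.516). The activation marker Cd69 was at 12.65, 12.32 and 11.51 in D3, D4 and D6 (0.23 ± 0.08, adjusted p = 0.456), and the adhesion receptor Cd44 at 10.64, 10.70 and 10.23 (0.27 ± 0.10, adjusted p = 0.467). Other probes of Cd44 gave differences from -0.03 to 0.32. The pro-apoptotic genes Bcl2l11, which encodes Bim, and Bbc3, which encodes Puma, differed by 0.26 ± 0.11 and 0.27 ± 0.11. On the straight line in times divided these were 0.01 for Bcl2l11 and -0.05 for Bbc3. The growth factor gene Il2 had means of 7.88, 8.17 and 7.83 (0.31 ± 0.13, adjusted p = 0.549), and Ifng was detected on 3 of the 9 arrays.

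**Figure D4:**
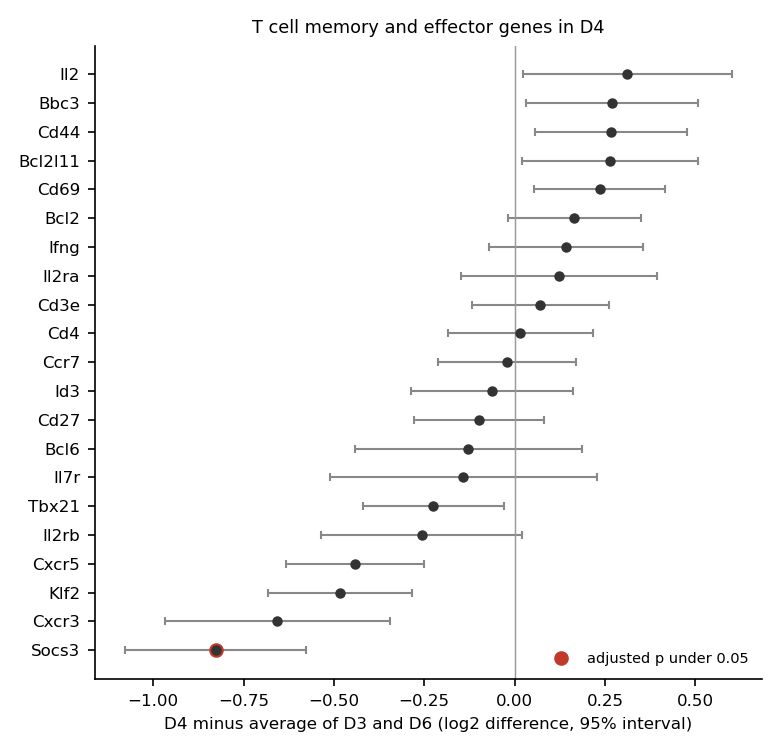
Log2 difference of D4 from the average of D3 and D6 for the 21 tested genes of memory, homing, activation and effector function, with 95% intervals from limma. The red point, Socs3, is the gene that passed, and without passing the adjustment over 17256 probes the intervals of Cxcr3, Klf2, Cxcr5 and Tbx21 lie wholly below 0 and those of Cd69, Cd44, Bcl2l11, Bbc3 and Il2 wholly above it.

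The mitotic genes showed what a steady course looks like in this contrast. Of the 27 measured G2/M genes, 27 had a D4 mean between their neighbours and 27 were lower in D4 than in D6 (adjusted p under 0.05), against 4.76% of all genes. Against the average of D3 and D6, 0 of 27 passed in limma and 10 had an unadjusted p under 0.05, each lower in D4. Over all genes, 4.44% were lower at such a p. Their median difference was -0.21, and it was -0.26, -0.09 and -0.26 in experiments 1 to 3, against -9.51e-04 over all genes. The mitotic phosphatase Cdc25b had the lowest p, at 4.66, 5.08 and 6.47 (-0.48 ± 0.10, adjusted p = 0.191), and the kinase Aurka had 7.55, 8.06 and 9.03 (-0.23 ± 0.08, adjusted p = 0.461). On the straight line in times divided the median of the list was 0.03. The 33 S phase genes had a median of -0.02, with 0 genes at an unadjusted p under 0.05 and 28 between the neighbours.

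Type I interferon genes split in 2 directions. Of 32 measured, 1 passed (Oas2, lower), 9 including it were lower and 2 higher at an unadjusted p under 0.05, with a median of -0.11. Over all genes 8.78% had such a p, 4.44% lower and 4.34% higher. On the straight line in times divided the median of the list was -0.05. Ifitm3, an antiviral membrane protein, was at 6.45, 6.37 and 7.62 in D3, D4 and D6 (-0.67 ± 0.13, adjusted p = 0.129), and Cmpk2 at 5.78, 5.65 and 6.61 (-0.54 ± 0.14, adjusted p = 0.292). The apolipoprotein L genes Apol9a and Apol9b went the other way, at 7.26, 7.37 and 6.21 (0.64 ± 0.11, adjusted p = 0.0700) and at 7.65, 7.64 and 6.49 (0.57 ± 0.11, adjusted p = 0.156). They are near-identical copies, so their probes could share signal. D4 minus D3 lay between -0.13 and 0.12 in these 4 genes.

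Of 20 homing and adhesion genes, 0 passed in limma, and 5 were lower and 1 higher at an unadjusted p under 0.05, with a median of -0.07. The lower ones were Gpr183, Cxcr4, Klf2, Cxcr5 and Cxcr3. Gpr183, a receptor for oxysterols that positions cells in lymphoid organs, came closest, at 8.67, 8.81 and 10.15 in D3, D4 and D6 (-0.59 ± 0.10, adjusted p = 0.0700). Of 27 early activation genes, 0 passed, and 7 were higher and 1 lower at an unadjusted p under 0.05, with a median of 0.07. The phosphatase Dusp1 had the lowest p of them, at 11.10, 10.70 and 9.51 (0.39 ± 0.09, adjusted p = 0.197). Of 20 pro-apoptotic genes, 0 passed and 4 were higher at an unadjusted p under 0.05 (Bmf, Bbc3, Ddit3 and Bcl2l11), with a median of 0.02. Over all genes, 4.34% were higher and 4.44% lower at such a p. On the straight line in times divided the medians were -0.08 for homing and adhesion, 0.04 for early activation and -0.01 for pro-apoptotic genes.

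Ribosome biogenesis was the list with the most genes highest in D4: 13 of 30 had a D4 mean above both neighbours, against 2029 of all 9284 genes, although 0 passed and 3 had an unadjusted p under 0.05. These were Ppan (9.69, 9.74 and 9.35), Mrto4 (7.73, 7.83 and 7.50) and Rrp12 (9.93, 9.95 and 9.55), factors of ribosomal subunit assembly, with differences of 0.20 to 0.22. The median of the list was 0.09, and 0.01, 0.06 and 0.15 in experiments 1 to 3, while on the straight line in times divided it was 0.03. Its median D4 minus D3 was -0.02 and its median D4 minus D6 was 0.22, so the list as a whole did not peak at D4. Among 14 Th1 and cytotoxic genes, 4 were higher and 2 lower at an unadjusted p under 0.05, and the pore-forming protein Prf1 had means of 9.54, 9.81 and 9.07 (0.50 ± 0.11, adjusted p = 0.191). The shares of all genes at such a p were 4.34% higher and 4.44% lower. Over the 23 lists of processes, Socs3 and Oas2 were the members that passed, against 6 of all 9284 genes (0.0646%).

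**Figure D5:**
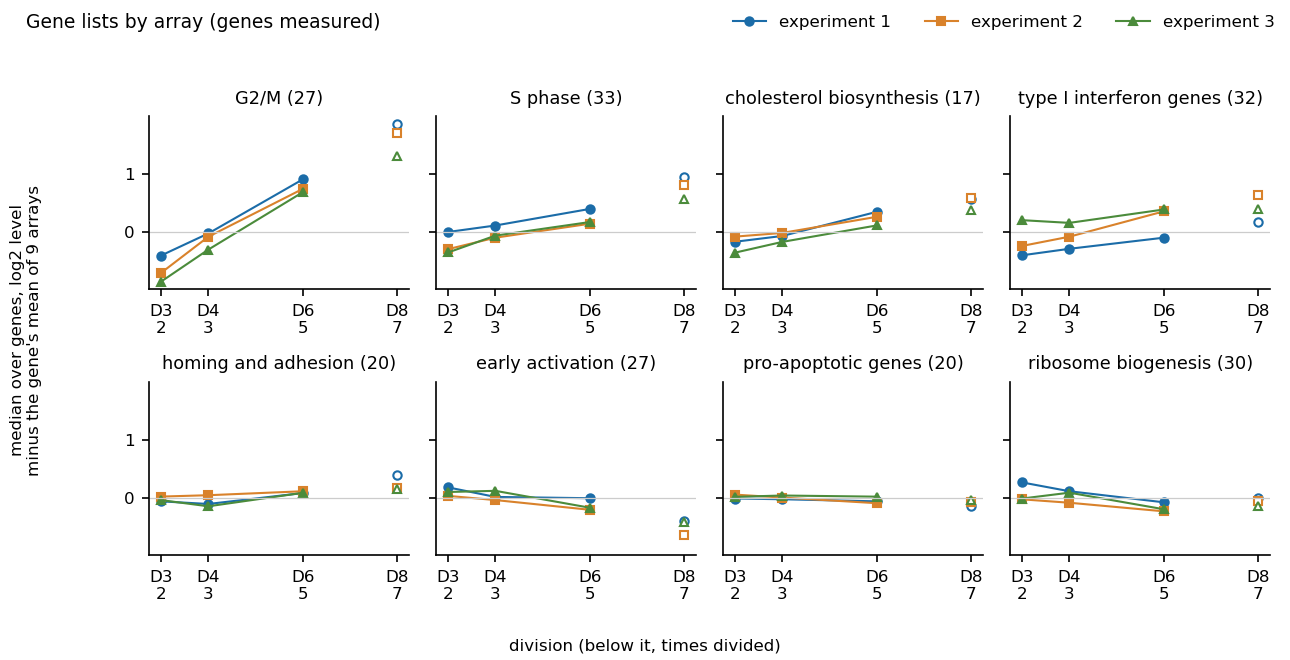
Median over the genes of 8 lists of their log2 level minus each gene's mean over the 9 arrays, by division, with 1 line per experiment and open symbols for D8. The G2/M genes climb in every experiment, from -0.85 to -0.40 in D3 through -0.30 to -0.02 in D4 to 0.69 to 0.91 in D6, and the other lists move less.

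Markers of other cell types gave 0 called genes over 8 lists in limma. The NK cell receptor Klrd1, the only 1 of 7 NK markers detected, was at 5.59, 5.73 and 6.70 in D3, D4 and D6 (-0.42 ± 0.09, adjusted p = 0.197). The costimulatory ligand Cd86, 1 of 3 detected of 10 dendritic cell markers, was at 9.79, 9.50 and 8.25 (0.48 ± 0.11, adjusted p = 0.226), while Itgax, Flt3, Xcr1 and Clec9a were not detected. The summed linear level of the detected dendritic cell markers was 826 to 1032 in D3, 693 to 856 in D4 and 353 to 398 in D6. Cd86 made up most of this sum, and the median D6 minus D3 of the 3 markers was -0.15. For B cells, 8 of 16 markers were detected, with sums of 559 to 757, 525 to 638 and 541 to 632, and Ms4a1, Cd79a and Pax5 were not. Other lists had higher sums in D3, D4 and D6. For CD8 T cells, 1 of 2 markers was detected, at 2617 to 3864, 2854 to 3375 and 2563 to 3247, while Cd8a was not detected. Plasma cell markers (4 of 8) summed to 1577 to 1955, 1690 to 2019 and 1874 to 2131. Myeloid markers (4 of 14) summed to 1109 to 1326, 1020 to 1279 and 1021 to 1352. The part of other cells in the differences above was not tested.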

How the data were processed

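The authors deposited probe intensity values on a linear scale, read out with BeadStudio 2.0 per the submitters' processing notes, without normalization. Per the file headers, each intensity comes with a detection p-value. A second table deposited by the authors gives background-subtracted intensity values, with medians between 2.74 and 2.76 and a rank correlation of 1 with the first table. Their method is not given in the sources used here, and they served as an alternative.

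Normalization of all 12 arrays used the neqc function (limma 3.58.1, R 4.3.3; quantile, log2, offset 16), with negative controls taken from the detection p-values. Probes detected on at least 3 of the 9 arrays entered a limma fit (lmFit, eBayes) of division and experiment, with 4 residual and 6.43 prior degrees of freedom. P-values were adjusted over 17256 probes (Benjamini-Hochberg), with a threshold of 0.05. The test of D4 beyond both neighbours took the larger p-value of D4 minus D3 and D4 minus D6 where their signs agreed. Lists use the brightest probe of each gene. The fit was tested on simulated data.

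The experiment numbers come from the labels and mark independent experiments. Deviations from the division means correlated at 0.172 to 0.410 within an experiment (9 pairs). Between arrays that differed in both experiment and division they correlated at -0.361 to 0.0466 (18 pairs). Because the deviations cancel within each division, higher values within an experiment force lower ones between experiments, and these ranges are not independent. With the block, differences in level between experiments are removed. P-values rest on how much the differences between divisions vary across these 3 experiments, with each probe's variance moderated over all probes. The number of arrays limits the precision.

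Named genes carry 1 symbol and are detected on all 9 arrays: the called ones, up to 12 in each direction, the 8 with the largest smaller gap above both neighbours and the 8 below, up to 4 called genes per list, and 25 chosen genes where measured. Chil5 and the probes without a gene were added because they were called, and list genes beyond this rule were chosen for the lowest unadjusted p. Members and lists were chosen with earlier results of these data known. Symbols come from the platform annotation, and 0 of 34807 looked up had changed. Alternatives covered the block, the arrays, normalization, background, filter, probe choice, line, eBayes settings and each array or experiment left out.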

Additional observations from a re-analysis of the deposited data

How the results depend on the processing

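The number of called probes (8, with 2 higher and 6 lower) moved with most choices. It was 0 with no replicate block, 15 with all 12 arrays in the fit (1 higher, 14 lower), 41 with each array centred on its median (14 higher, 27 lower), 1 with the authors' values, 69 without background subtraction (32 higher, 37 lower), 9 with probes detected on all 9 arrays, 0 with no filter (45281 probes; 3042 at an unadjusted p under 0.05), 18 with the brightest probe per gene, 1 against a straight line in times divided and 90 with an intensity trend and robust estimation (46 higher, 44 lower). The calls of the 8 recurred in full with median centring, without background subtraction and with trend and robust estimation, and 5 of them with all 12 arrays. The cause of these moves was not tested. Leaving out 1 array or 1 experiment gave 0 to 11 called probes. The count was 3, 3 and 4 without D3 replicates 1, 2 and 3, then 1, 0 and 0 without those of D4, and 2, 11 and 8 without those of D6. Without experiments 1, 2 and 3 it was 0, 0 and 2.

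The count beyond both neighbours (0) was 1 with median centring, without background subtraction, with probes detected on all 9 arrays and with trend and robust estimation, each time ILMN_1236603, at an adjusted p from 3.73e-04 to 0.0295. It was 0 in each leave-out. Called probes with D4 outside both neighbour means (2) numbered 0 with no replicate block, 4 with all 12 arrays, 12 with median centring, 1 with the authors' values, 25 without background subtraction, 0 with no filter, 5 with the brightest probe per gene, 1 against the straight line, 32 with trend and robust estimation, and 0 to 2 in the leave-outs.

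Of 44 named genes and probes, 40 kept their direction throughout. Cd4 was -0.0090 with median centring and -0.035 to 0.058 in the leave-outs, Bbc3 was -0.051 against the straight line, Ccr7 ranged from -0.076 to 0.057 and Il2ra from -0.012 to 0.292 in the leave-outs. Cxcr4 passed with median centring (adjusted p = 0.0185), without background subtraction (0.0489) and with trend and robust estimation (0.0285); over all 10 settings besides leave-outs its adjusted p ranged from 0.0185 to 1.00. In the main fit, with 3 experiments and a median standard error of 0.10, no difference under 0.78 passed. Probes near the detection limit, such as Chil5, have compressed differences.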
